A study of Mus musculus with 8 samples.

Results

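*Adipoq*, *Lep*, *Retn*, *Cfd*, *Plin1*, *Plin4*, *Cidec*, *Fabp4*, *Pparg* and *Ucp1* are 10 marker genes of fat cells, followed here in the gastrocnemius (GAS) muscle of mice after knockdown of MYTHO. They were picked by name, by taking each row of the deposited table whose gene symbol is 1 of the 10, and every gene had 1 probe set among the 22206 probe sets (22664 gene symbols) of the table. A probe set is a group of short array probes read as 1 signal, and some probe sets name more than 1 gene. The animals were male C57/Bl6j mice with no engineered allele, whose muscle received an adeno-associated virus (AAV) of serotype 1 when they were about 10 weeks old. In the MYTHO-KD group the virus carried a short hairpin RNA (sh-RNA) against the transcript of *D230025D16Rik*, the gene that encodes MYTHO. In the control group it carried a scramble sh-RNA and went into the contralateral leg. Muscles were taken at 22 weeks of age, 12 weeks after the injection, and 4 muscles of each group were hybridized to Clariom S Mouse arrays. The U6 promoter that drove both hairpins is not restricted to muscle fibres, and RNA came from whole muscle, so fat cells, vessels and immune cells are part of each sample. Both legs carried AAV and a hairpin, and neither group is an uninjected muscle.

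White adipocytes store triglyceride in a single large droplet coated by perilipins, release fatty acids when lipolysis is switched on, and secrete hormones called adipokines. PPARG, a nuclear receptor, switches on most of this programme together with C/EBP factors. In skeletal muscle adipocytes lie between the fibres and around the fascicles, and they can arise from fibro-adipogenic progenitors, the connective tissue cells that expand in damaged or diseased muscle. Fat replacing fibres is a common feature of chronic myopathies.

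The deposited values are the authors' average and standard deviation (SD) of each group on the log2 scale, and the values of single muscles are not analysed here. Which muscles were high or low, and whether the groups overlapped, therefore cannot be read from these data. The averages in the table ran from 3.18 to 19.93, and 4 arrays a group limit the precision. Signals of different probe sets are on no common scale, so each gene is compared with itself across the groups. *D230025D16Rik* averaged 7.71 ± 0.66 in MYTHO-KD and 10.02 ± 0.37 in scramble (log2, SD, n = 4 arrays each). That difference of -2.31 (SE 0.304) left 20.2% of the scramble signal, with an adjusted p of 0.0138 in the limma moderated test over all probe sets and of 0.173 without moderation. Among markers of muscle fibres, *Acta1* (skeletal actin) stood at 19.93 in both groups, at the top of the scale. By the table's own flag, whose rule is not stated, 9 of the 10 adipocyte genes were expressed in both groups, and *Ucp1* was flagged expressed in scramble alone.

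The promoter stretches around 4 of the start sites are given to show where short motifs of general and adipogenic factors lie in them. RefSeq promoter windows (GRCm38.p6, 300 bases each) matched 9 of the 10 genes, *Fabp4* being without an entry. Both strands were searched for CCAAT, the box bound by NF-Y, for the TATA box written as TATAAA, for the nuclear receptor half-site AGGTCA, and for TTGCGCAA, the palindrome read by C/EBP factors. Each stretch of 100 bases runs 5′ to 3′ on the gene's strand, with 80 bases before the start and 20 from it on, and capitals mark the match. Genes were printed where they had 1 window and a match within the stretch. They lie at chr16:23146456-23146555 (*Adipoq*, plus strand), chr17:56109763-56109862 (*Plin4*, minus strand), chr6:29060141-29060240 (*Lep*, plus strand) and chr8:83290268-83290367 (*Ucp1*, plus strand).
Adipoq: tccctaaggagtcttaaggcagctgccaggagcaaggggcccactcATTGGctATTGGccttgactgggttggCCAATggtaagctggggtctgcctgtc
Plin4: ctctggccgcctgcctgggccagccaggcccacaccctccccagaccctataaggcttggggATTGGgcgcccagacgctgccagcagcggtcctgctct
Lep: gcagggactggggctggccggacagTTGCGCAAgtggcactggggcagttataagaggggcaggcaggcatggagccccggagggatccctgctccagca
Ucp1: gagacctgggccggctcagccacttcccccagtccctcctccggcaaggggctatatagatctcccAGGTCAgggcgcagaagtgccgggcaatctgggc
The *Adipoq* stretch held CCAAT in either orientation 34, 27 and 7 bases before the start, and the *Plin4* stretch held it 18 bases before. CCAAT was found in 37.4% of all 32851 promoter windows. The *Lep* stretch held TTGCGCAA 55 bases before the start, a motif present in 0.183% of all windows. The *Ucp1* stretch held AGGTCA 14 bases before the start. At any position, 16.3% of all windows of 300 bases held AGGTCA. *Pparg*, which has several start sites, had matches to the CCAAT box, the half-site of nuclear receptors and the TATA box, the last found in 13.6% of all windows. The windows of *Plin1*, *Cfd*, *Retn* and *Cidec* held none of these letters. A match is a stretch of letters and not evidence of binding.

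The secreted products of adipocytes had lower averages in MYTHO-KD, but all 4 differences had 95% intervals that held 0. *Adipoq*, on chromosome 16 (chr16:23146536-23158028, mm10), encodes adiponectin, an adipokine made almost entirely by adipocytes. It averaged 7.04 ± 2.13 in MYTHO-KD and 7.73 ± 2.22 in scramble (log2, SD). The MYTHO-KD signal was thus 62.0% of the scramble signal, a log2 difference of -0.69 (SE 1.104). Its 95% interval reached from -3.10 to 1.72, or from 0.117-fold to 3.29-fold. In this unpaired test neither a large loss nor a large gain of adiponectin RNA can be set aside. The adjusted p was 0.869 (limma, over all probe sets). In whole muscle, fewer adipocytes and less RNA per adipocyte cannot be told apart.

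*Cfd*, at chr10:79890853-79892656, encodes adipsin, the complement factor D that white fat secretes. It averaged 7.25 ± 1.64 in MYTHO-KD and 8.03 ± 2.03 in scramble. This was the largest difference among the 10 genes, -0.78 (SE 0.939), or 58.2% of scramble, and its interval of -2.83 to 1.27 still held 0 (limma adjusted p = 0.814). *Retn*, at chr8:3655770-3660110, encodes resistin, which in mice is made by adipocytes. It averaged 6.58 ± 1.17 in MYTHO-KD and 7.33 ± 1.31 in scramble (log2, SD). The difference of -0.75 (SE 0.641, interval -2.15 to 0.65) put the MYTHO-KD signal at 59.5% of scramble. *Lep*, at chr6:29060220-29073877, encodes leptin, the satiety hormone whose level follows the fat mass. It averaged 5.81 ± 0.73 and 6.14 ± 0.68, a difference of -0.33 (interval -1.16 to 0.50). The limma adjusted p was 0.714 for *Retn* and 0.805 for *Lep*.

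**Figure D1:**
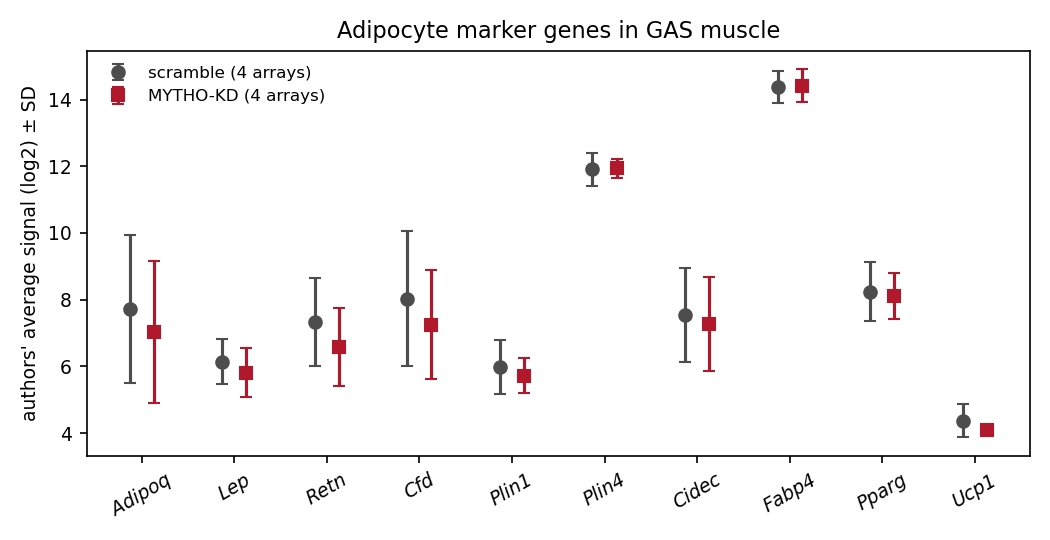
Authors' average signal of each adipocyte marker gene (y axis, log2) in scramble (grey circles) and MYTHO-KD (red squares), with bars of 1 SD over 4 arrays; heights are not comparable between genes. The SD bars of the groups overlap for every gene, and those of *Adipoq* and *Cfd* are the longest.

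The genes of the lipid droplet had averages that were lower or almost equal in MYTHO-KD, all with intervals that held 0. *Plin1*, at chr7:79721164-79732776, encodes perilipin 1, the coat protein of the large adipocyte droplet that holds lipases off until it is phosphorylated. It averaged 5.72 ± 0.52 in MYTHO-KD and 5.98 ± 0.81 in scramble, a difference of -0.26 (SE 0.370, interval -1.07 to 0.55). *Cidec*, at chr6:113424634-113435760, encodes the protein that joins droplets into larger ones. It averaged 7.26 ± 1.41 and 7.54 ± 1.40, a difference of -0.28 whose interval of -1.85 to 1.29 is more than 3 log2 units wide. *Plin4*, at chr17:56100591-56109802, encodes a perilipin of small and nascent droplets that muscle fibres make as well as adipocytes. It averaged 11.94 ± 0.28 and 11.91 ± 0.49, a difference of 0.03 with an interval of -0.51 to 0.57. For *Plin4* a change of 2-fold in either direction therefore lies outside the interval. For *Plin1* and *Cidec* a 2-fold loss lies inside the interval, and for *Cidec* a 2-fold gain does as well. The limma adjusted p was 0.847 for *Plin1*, 0.931 for *Cidec* and 0.984 for *Plin4*.

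*Fabp4*, at chr3:10204328-10208576, encodes the fatty acid carrier aP2 of adipocytes, which capillary endothelium and macrophages also make. It averaged 14.42 ± 0.49 in MYTHO-KD and 14.38 ± 0.48 in scramble (log2, SD). The difference was 0.04 (SE 0.282, interval -0.58 to 0.66, limma adjusted p = 0.980), or 103% of the scramble signal. *Pparg*, at chr6:115361221-115490401, averaged 8.11 ± 0.69 and 8.24 ± 0.88, a difference of -0.13 (SE 0.422, interval -1.05 to 0.79). *Ucp1*, at chr8:83290348-83298456, encodes the uncoupling protein of brown and beige adipocytes. It averaged 4.08 ± 0.13 and 4.37 ± 0.50, below the 30th percentile of all mean signals (5.715). Its difference of -0.29 (interval -0.80 to 0.22) thus comes from a probe set close to the floor of the array, where a fall can go unseen. The limma adjusted p was 0.950 for *Pparg* and 0.686 for *Ucp1*.

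None of the 10 genes passed any of the tests. A call followed the rule of the study's methods, at least 2-fold with an unadjusted p under 0.05, which 0.86% of all probe sets met upward and 0.257% downward. Of the adipocyte genes 0 met it, by limma, and 0 had an unadjusted p under 0.05, against 6.48% of all probe sets higher and 5.52% lower. After Benjamini-Hochberg adjustment the count was likewise 0, against 0.18% of all probe sets higher and 0.0946% lower. Unadjusted limma p-values ran from 0.235 for *Ucp1* to 0.905 for *Plin4*, and 0 genes had one under 0.05 without moderation, with a trend, with unequal variances, after centring or after the filter on dim probe sets. By sign, 8 genes had a lower average in MYTHO-KD, and *Plin4* and *Fabp4* a marginally higher one. The median difference was -0.285, against -0.01 over all probe sets, of which 46.9% had a higher average in MYTHO-KD. The genes are markers of the same cells in the same muscles, so 8 of 10 are not 8 independent observations. The 95% interval lay within 2-fold in both directions for 3 genes, *Plin4*, *Fabp4* and *Ucp1*. Of these, *Ucp1* is close to the floor of the array, where a fall can go unseen. For the other 7 a difference of 2-fold in at least 1 direction lay inside the interval.

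**Figure D2:**
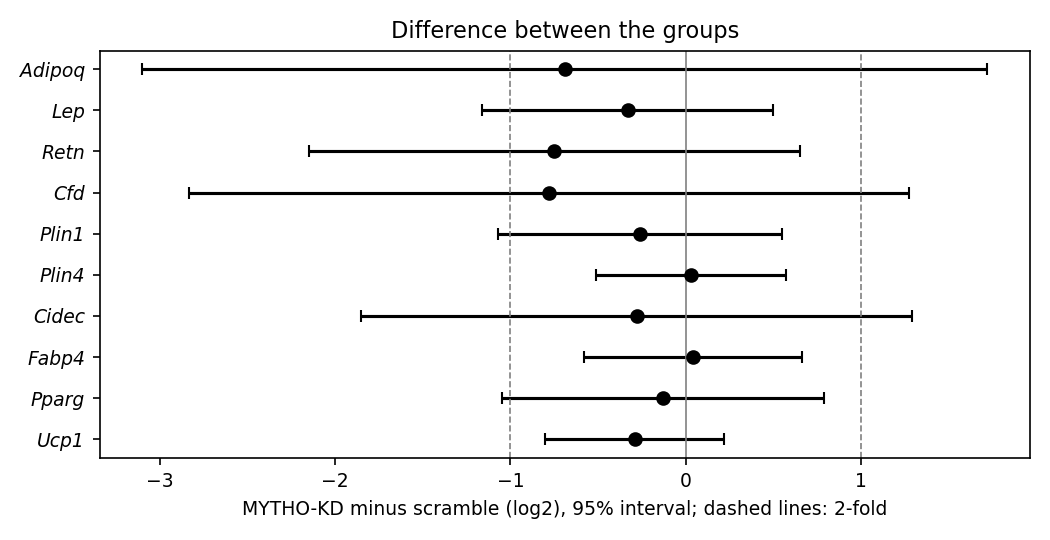
Difference of each adipocyte marker gene, MYTHO-KD minus scramble (x axis, log2), with its 95% interval from the moderated variance (4 arrays a group); dashed lines mark 2-fold. Every interval crosses 0, and those of *Adipoq* and *Cfd* span the most.

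Several adipocyte genes had a wide spread among muscles of the same group. *Adipoq* had the second largest SD of all probe sets in scramble (rank 2 of 22206) and rank 18 in MYTHO-KD. *Cfd* ranked 4 and 31, *Cidec* 20 and 51, and *Retn* 24 and 74, in scramble and MYTHO-KD respectively. On the linear scale, 1 SD of *Adipoq* was a factor of 4.66 in scramble and 4.38 in MYTHO-KD, and 1 SD of *Cfd* a factor of 4.08 and 3.12. For each of these 4 genes, 1 SD within a group was larger than the difference between the groups. Both SDs were above 1 in 36 probe sets (0.162% of all), and 4 of these were *Adipoq*, *Cfd*, *Cidec* and *Retn*, a limit that was chosen with the values in view. Both SDs were above 0.5 in 7 of the 10 genes and in 1.84% of all probe sets.

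The SDs were also set against those of probe sets with similar signal. Among the 1000 probe sets nearest in average, the SD of *Pparg* stood at percentile 99.6 in scramble and 96.3 in MYTHO-KD, and that of *Lep* at 98.1 and 98.4. *Plin1* was at 99.7 and 89.1, so its spread was less extreme in MYTHO-KD. *Fabp4* stood at 94.3 and 90.8, and *Plin4*, the gene that fibres share, at 91.4 and 59.8. *Ucp1* had an SD of 0.50 in scramble, rank 2014 of all probe sets, and of 0.13 in MYTHO-KD, rank 19293. The SD was larger in scramble for 7 of the 10 genes, as for 49.5% of all probe sets, and the median SD of the genes was 0.845 in scramble and 0.71 in MYTHO-KD, against 0.27 in each group over all probe sets. An SD from 4 arrays is itself imprecise, and the SDs of the groups were not tested against each other. *Scd1*, which makes monounsaturated fatty acids in fat, averaged 11.87 ± 2.37 in MYTHO-KD and 12.26 ± 2.20 in scramble. *Cyp2e1*, a cytochrome of liver that white adipocytes also express, averaged 8.14 ± 1.12 and 8.42 ± 1.46. Both were chosen after their values were seen. Of the 101 other genes in 11 lists of adipocyte and lipid genes, described below, only these 2 had both SDs above 1. The median SD of the 14 other white adipocyte markers was 0.335 in MYTHO-KD and 0.305 in scramble.

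**Figure D3:**
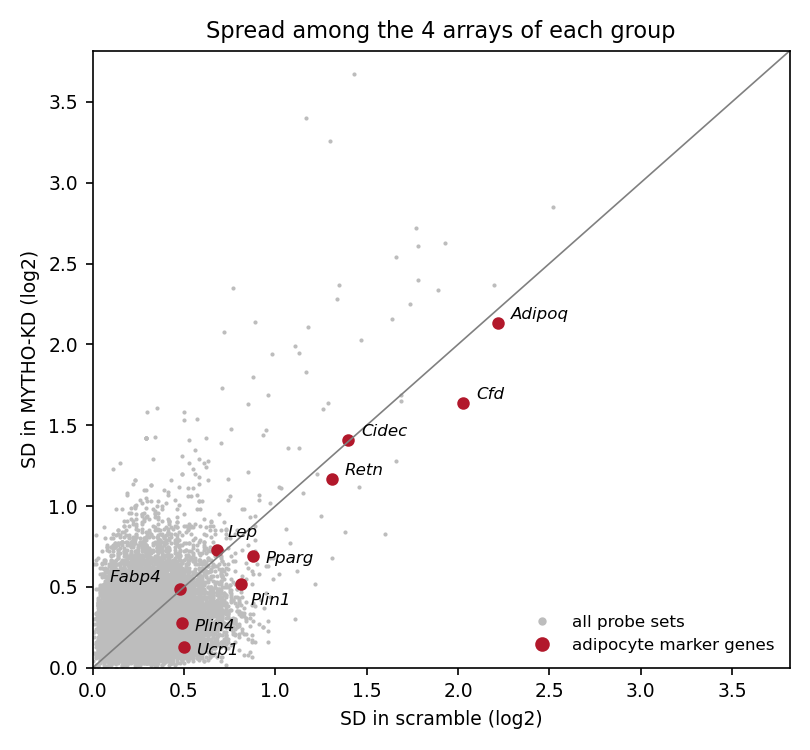
SD of each probe set among the 4 arrays of scramble (x axis, log2) against that of MYTHO-KD (y axis, log2), with adipocyte marker genes in red and equal SDs on the line. *Adipoq*, *Cfd*, *Cidec* and *Retn* lie far out along the line, with wide spread in both groups, while *Plin4* and *Ucp1* lie among the other probe sets in MYTHO-KD.

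Other genes of the adipocyte were taken from 11 lists on its secretion, lipid handling and transcriptional control, 101 genes besides the 10. Of these, 12 had an unadjusted p under 0.05 with a higher average in MYTHO-KD and 9 with a lower one, where all probe sets had shares of 6.48% and 5.52%, and the median difference was 0.05. Without moderation the counts were 5 higher and 7 lower, so the balance of the directions turned. The other white adipocyte markers mostly had lower averages, as did the 10 genes. Of 14, 11 had a lower average in MYTHO-KD and the median difference was -0.245, against -0.01 over all probe sets. An unadjusted p under 0.05 was found for 4 of them, all lower: *Arxes2* (-0.60), *Ces1d*, a triglyceride hydrolase (-0.53), *Trarg1*, which acts on GLUT4 trafficking and is listed as *Tusc5* (-0.52), and *Hoxc8*, a position factor of white fat (-0.41). None passed adjustment, with limma adjusted p-values of 0.357, 0.385, 0.391 and 0.328, and without moderation 1 of the 4 kept an unadjusted p under 0.05. *Car3*, carbonic anhydrase 3, which fat and slow fibres share, averaged 18.46 in MYTHO-KD and 18.43 in scramble.

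Among 6 further adipokines, *Nampt*, the NAD salvage enzyme that is also secreted, was lower by the unadjusted test at 12.26 ± 0.12 against 12.63 ± 0.17 (difference -0.37, limma adjusted p = 0.385). The receptors of adipokines had 3 of 4 genes with an unadjusted p under 0.05, in both directions. All probe sets had shares of 6.48% higher and 5.52% lower. *Lepr*, the leptin receptor, averaged 7.19 in MYTHO-KD and 6.29 in scramble (0.90) and *Adipor2* 12.54 and 12.02 (0.52), while *Adipor1* averaged 14.40 and 15.18 (-0.78). The limma adjusted p-values were 0.212, 0.385 and 0.262, so no receptor passed adjustment.

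Of the other droplet coat and CIDE genes, 0 of 8 had an unadjusted p under 0.05 by limma with or without moderation, and of the lipolysis genes 0 of 10. *Fitm1*, which helps droplets bud in muscle, averaged 14.06 and 13.90, and *Pnpla2*, the first lipase of triglyceride breakdown, 15.81 and 15.75, in MYTHO-KD and scramble. The 18 genes of triglyceride and fatty acid synthesis went both ways, 3 higher and 2 lower by the unadjusted test. Over all probe sets the shares were 6.48% higher and 5.52% lower. *Agpat2* (1.20) and *Dgat2* (0.72), enzymes of triglyceride assembly, and *Thrsp* (0.72), a lipogenic nuclear protein, had higher averages in MYTHO-KD. *Me1*, malic enzyme (-0.82), and *Gpd1*, glycerol phosphate dehydrogenase (-0.57, the smallest of the 5 and named to complete the count), had lower ones. The limma adjusted p-values of these 5 lay between 0.22 and 0.41, and of the 5 only *Gpd1* kept an unadjusted p under 0.05 without moderation. *Lpin1*, a phosphatidate phosphatase, averaged 14.98 and 15.32.

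In fatty acid uptake and binding, the list of *Fabp4*, 8 of 8 other genes had a higher average in MYTHO-KD. Over all probe sets 46.9% did. The median difference was 0.495, and 3 had an unadjusted p under 0.05, against 6.48% of all probe sets with a higher average. *Lpl*, lipoprotein lipase, averaged 14.68 ± 0.67 in MYTHO-KD and 13.78 ± 0.59 in scramble (0.90). *Fabp5* averaged 6.30 ± 0.27 and 5.41 ± 0.37 (0.89), and *Slc27a1*, a fatty acid transport protein, 12.13 and 11.36 (0.77). The limma adjusted p-values were 0.328, 0.123 and 0.340, and 1 of the 3 kept an unadjusted p under 0.05 without moderation. *Fabp3*, the carrier of muscle, averaged 17.94 and 17.73. Fibres and vessels make these proteins as well as fat cells, and the values cannot be assigned to one of them.

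Among 10 adipogenic transcription factors other than *Pparg*, *Cebpd*, an early factor of adipocyte differentiation, averaged 9.11 ± 0.39 in MYTHO-KD and 8.34 ± 0.37 in scramble (0.77, limma adjusted p = 0.213), and *Ebf1* 12.07 and 11.99. Of 10 partners and coregulators of PPARG, *Rxrg* averaged 12.24 and 12.86 (-0.62, limma adjusted p = 0.278) and *Ppargc1a* 13.65 and 13.50. The 7 anti-adipogenic regulators had 0 unadjusted p-values under 0.05 by limma with or without moderation and a median difference of 0.24, and *Sirt1*, a deacetylase that represses PPARG, averaged 10.31 in MYTHO-KD and 10.16 in scramble. Of the 11 brown and beige fat genes other than *Ucp1*, 10 had a higher average in MYTHO-KD, with a median difference of 0.15. Over all probe sets 46.9% had a higher average, and the median was -0.01. *Prdm16*, *Elovl3* and *Zic1* each differed by only 0.02, and *Cidea* by 0.05. An unadjusted limma p under 0.05 was found for 3 of the 11, all higher, against 6.48% of all probe sets. *Tbx1*, a T-box factor used as a beige fat marker that is also a factor of developing head muscle, rose from 7.24 ± 0.75 to 9.92 ± 1.06 (2.68, limma adjusted p = 0.0482). That adjusted p was 0.285 without moderation. *Cox7a1*, a cytochrome oxidase subunit of brown fat, heart and muscle (0.73), and *Dio2*, the deiodinase that activates thyroid hormone (0.50), had unadjusted p-values under 0.05 and did not pass adjustment.

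**Figure D4:**
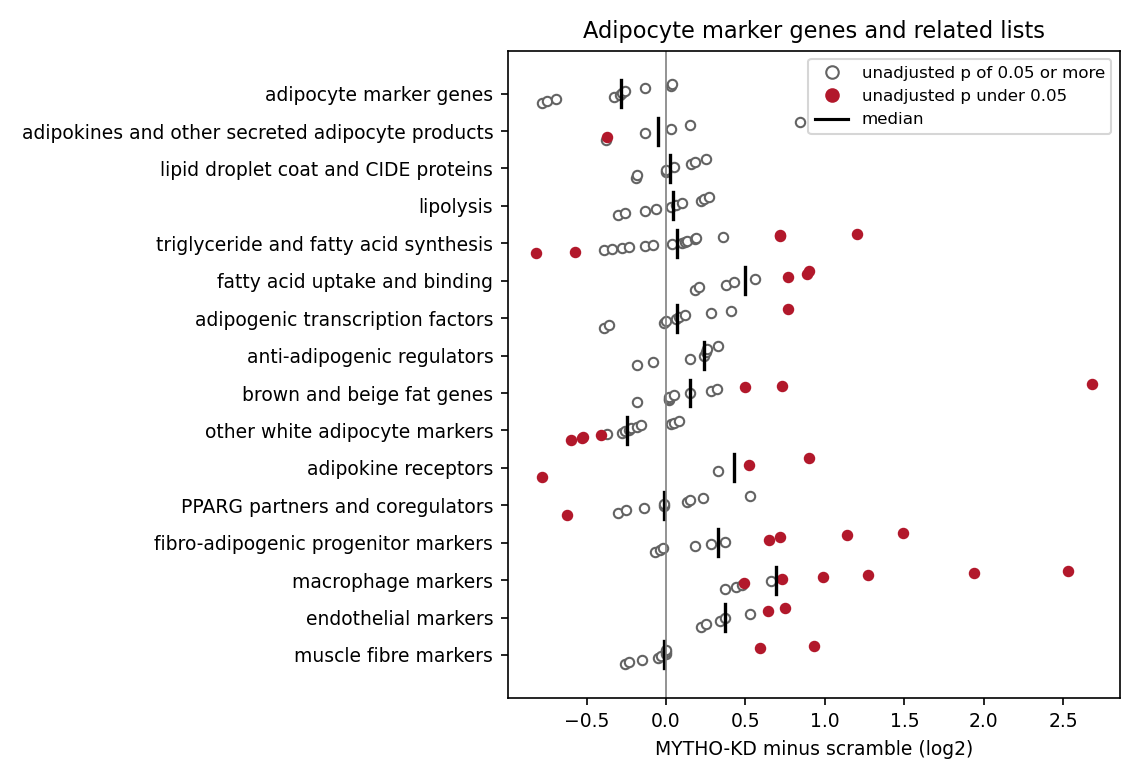
Difference of each gene, MYTHO-KD minus scramble (x axis, log2), for the adipocyte marker genes, 11 lists of adipocyte and lipid genes and 4 lists of other cell types; filled points have an unadjusted limma p under 0.05 and black bars are medians. The adipocyte marker genes and the other white adipocyte markers have medians of -0.285 and -0.245, and the macrophage markers have the highest, 0.695.

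Markers of connective tissue cells, macrophages and endothelium mostly had higher averages in MYTHO-KD, beside the lower averages of 8 adipocyte genes. Of the fibro-adipogenic progenitor markers 4 of 10 had an unadjusted p under 0.05, all with a higher average in MYTHO-KD, against 6.48% of all probe sets. Their list had a median difference of 0.325, with 7 genes higher and 3 slightly lower. *Pdgfra* differed by 0.18, and the 3 lower genes were *Tcf21* (-0.07), *Mme* (-0.04) and *Dpp4* (-0.02). *Lum*, the matrix proteoglycan lumican, rose from 10.36 to 11.85 (1.49, limma adjusted p = 0.0443). *Pi16* had a difference of 1.14, *Ly6a* of 0.72 and *Cd34* of 0.65, none past adjustment, and *Dcn*, decorin, averaged 16.86 in MYTHO-KD and 16.58 in scramble. Of 10 macrophage markers 6 had an unadjusted p under 0.05, all higher, where 6.48% of all probe sets did, with a median of 0.695, and without moderation 3 did. *Cd68* (2.53) and *Lyz2* (1.94) rose with limma adjusted p-values of 0.0182 and 0.0277, while *C1qb* (1.27) and *Csf1r* (0.99) did not pass adjustment. Without moderation the adjusted p-values of *Lum*, *Cd68* and *Lyz2* were 0.247, 0.198 and 0.21. The 7 endothelial markers all had higher averages, with a median of 0.37, beside a difference of 0.04 for *Fabp4*. Over all probe sets 46.9% had a higher average, and the median was -0.01. Of the 7, *Kdr* (0.75) and *Eng* (0.64) had an unadjusted p under 0.05, against 6.48% of all probe sets, and 1 of them did without moderation. Neither passed adjustment, with limma adjusted p-values of 0.190 and 0.364. *Cdh5* averaged 13.22 in MYTHO-KD and 12.85 in scramble. Of 10 muscle fibre markers, 5 had lower averages in MYTHO-KD and 2 higher ones, *Mb* (0.93) and *Myh1* (0.59), both with an unadjusted p under 0.05. The other 3, *Acta1*, *Myh4* and *Atp2a1*, stood at the top of the scale in both groups with an SD of 0, where no difference can be seen, and this draws the list's median of -0.015 towards 0. The part of these cells in the values of *Fabp4*, *Pparg* and the other adipocyte genes was not tested.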

How the data were processed

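Affymetrix Clariom S Mouse arrays were normalized by the authors in the Transcriptome Analysis Console by SST-RMA, per the methods of the paper; the submitters' processing notes name Affymetrix Expression Console and RMA. The authors deposited 1 table of 28 columns with, for each probe set, the log2 average, SD and expression flag of each group. These 6 columns were used, and 0 columns of single arrays are in the table. Its fold changes, p-values and false discovery rates are the authors' own comparison and were not used. Coordinates are those of the table (mm10). The kind of average is not stated; if it is a robust mean, the p-values here are somewhat too low.

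Differences are the log2 average of MYTHO-KD less that of scramble. The group variances were averaged (6 residual degrees of freedom), moderated over 22206 probe sets with squeezeVar of limma 3.58.1 in R 4.3.3 (prior SD 0.284, prior degrees of freedom 5.85), and tested two-sided with p-values adjusted over all of them by Benjamini-Hochberg. The code was tested on simulated data. Replicates are muscles, and the p-values set the difference between the groups against the spread between muscles of a group. The shared origin of legs of 1 mouse could not be modelled, so any spread between mice remains in it.

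The 10 genes and the 15 gene lists were chosen with earlier results of these data known. From each list, up to 4 genes with an unadjusted p under 0.05 and the largest differences were named, and the gene with the highest signal. Names outside this rule were chosen after their values were seen. They are *Gpd1*, *Scd1*, *Cyp2e1*, *Prdm16*, *Elovl3*, *Zic1*, *Cidea*, *Pdgfra*, *Tcf21*, *Mme*, *Dpp4*, *Myh4*, *Atp2a1* and those of the closing section. Alternatives were leaving out the moderation, a robust fit with a trend, unequal variances, a filter at the 30th percentile of mean signal, centring, the probe set with the lowest signal, a call at 1.5-fold and a call on the adjusted p.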

Additional observations from a re-analysis of the deposited data

How the results depend on the processing

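The count of adipocyte marker genes called was 0 with no moderation, a trend with robust fitting, unequal variances or centring. It was 0 after the filter on dim probe sets (9 genes, without *Ucp1*). Taking the probe set with the lowest signal, a call at 1.5-fold or a call on the adjusted p also gave 0. Those last alternatives could not have given another count. Each gene had 1 probe set, and no gene had an unadjusted p under 0.05 by limma. The lowest unadjusted p over the 10 genes was 0.304 by an ordinary t-test without moderation and 0.204 by limma with the trend. Of the 138 other genes of the lists, 26 had an unadjusted p under 0.05 with a higher average in MYTHO-KD and 9 with a lower one. The shares over all probe sets were 6.48% and 5.52%. Without moderation the counts fell to 15 and 8, and with unequal variances to 15 and 7. The differences themselves were the same in these fits. Without moderation each gene kept its own variance, and the test had 6 degrees of freedom, against 11.8 with moderation. The cause of the differences was not tested. No paired analysis was possible because the table holds group averages and SDs, and leaving out single replicates was not run for the same reason. Without moderation the interval of *Adipoq* widened to -4.45 to 3.07. In this unpaired comparison the group averages and SDs thus set almost no limit on its change. Array signals near the floor, as for *Ucp1*, can hide a fall.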

Other observations

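The 36 probe sets with an SD above 1 in both groups, among which 4 adipocyte marker genes stand, held 12 probe sets of the major urinary protein (Mup) family, which the liver makes in mice. All 12 had a higher average in MYTHO-KD, by 0.78 (*Mup3*) to 3.08 (*Mup1*), where 46.9% of all probe sets did. Several of the 12 name the same genes, such as *Mup1* and *Mup2*, and all come from the same muscles. They are thus not 12 independent observations. None passed adjustment, the lowest limma adjusted p being 0.278. *Alb*, serum albumin, averaged 10.98 ± 2.28 in MYTHO-KD and 8.32 ± 1.34 in scramble (log2, SD). *Hp*, haptoglobin, a plasma protein of liver that white adipocytes also secrete, averaged 8.22 ± 2.34 and 8.56 ± 1.89, and *Cdo1*, cysteine dioxygenase of liver and fat, 7.40 ± 1.20 and 7.19 ± 1.23. Slow fibre genes were in the same set, *Myh7* at 11.67 ± 3.26 and 12.40 ± 1.30 and *Tnni1* at 9.84 ± 3.67 and 10.87 ± 1.43. Whether the muscles with high adipocyte genes were those with high liver or slow fibre genes cannot be read from group averages. These genes were chosen after their values were seen.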
